A study of Mus musculus with 8 samples.

Results

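Genes that build the sugar chains of intestinal mucins were examined, together with the Nxpe genes, in the colon of mice with acute graft-versus-host disease. The set was a list of 40 symbols chosen by function, with earlier results of these data known. Of them 39 were found among the 19505 genes of the arrays, each through 1 probe set. St6galnac6 was not analysed here. BALB/c wild-type mice had been lethally irradiated and given bone marrow cells and T cells from C57BL/6 donors on day 0. From day 0 to day 7 they received either PBS or hBD-2 (human beta-defensin 2, an antimicrobial peptide of epithelia) at 1.2 mg/kg by mouth, and whole colon was taken on day 7. There were 4 mice in each group with 1 array per mouse, all 8 with the disease, so values compare treatment within the disease. The titles number the mice without saying whether they came from separate transplants, and p-values measure only the spread between these mice. Recipient and donor cells were not separated in whole tissue.

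Mucin O-glycans start in the Golgi with the transfer of N-acetylgalactosamine to serine or threonine by the Galnt enzymes. Core enzymes then add galactose or N-acetylglucosamine, further transferases lengthen and branch the chain, and fucose, sialic acid, sulfate and acetyl groups finish it. In the colon these chains make up most of the mass of Muc2, the secreted mucin that separates bacteria from the epithelium. Nxpe genes encode proteins with a neurexophilin and PC-esterase domain, and human NXPE1 has been linked to acetylation of sialic acid in colon mucus.

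The 8 arrays had medians of 6.77 to 6.82 log2 units, and their number limits how precise any value can be. Epithelial RNA was present at a like level in both groups, with a mean over 16 pan-epithelial markers of 11.06 to 11.15 in PBS mice and 11.05 to 11.15 in hBD-2 mice, and Epcam differed by 0.036 (95% interval -0.11 to 0.18), or 0.072 without hBD-2 1 and hBD-2 3. On the first principal component 2 treated mice, hBD-2 1 and hBD-2 3, lay apart at 25.2 and 25.4, against -14.9 to -2.45 in the other 6. They had the highest values of Hoxb13, a posterior Hox gene of the hindgut (9.06 and 9.32, others 4.73 to 7.22), and of Hoxd13 (6.20 and 6.03, others 4.09 to 4.49). In Fabp2, an intestinal fatty acid binding protein, they were lowest (6.75 and 7.00, others 8.07 to 9.72), the only 1 of 11 small intestine and proximal markers of which this held, while Fabp6 and Slc5a1 of that list were highest in them. Hoxd13 and Fabp6 belonged to the lowest 25% of genes by mean value, where signal over background cannot be read. Leaving these 2 mice out was a choice made after seeing the data. Differences that turn or move by over 1.5 times without them are given both ways, and the part of colon position in the results was not tested.

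No mucin glycosylation or Nxpe gene passed an adjusted p of 0.05 in limma, where 8 of all 19505 genes passed (0.0410%). At an unadjusted p under 0.05, 5 of the 39 were higher in hBD-2 mice (Nxpe5, St6galnac1, B3gnt7, Fut4 and Galnt14), or 12.8%, against 5.85% of all genes. One, the sialyltransferase gene St3gal4, was lower, or 2.56% against 5.98% of all genes. The median difference over the 39 was 0.046 log2 units, hBD-2 minus PBS, beside 0.012 over all genes, and 23 of the 39 lay above 0 (59.0%, against 53.5% of all genes). Differences beyond 0.5 log2 units in either direction occurred in 5 of the 39 and in 1.94% of all genes. Without hBD-2 1 and hBD-2 3 only Nxpe5 was beyond 0.5. Because the list was chosen with earlier results of these data known, these shares are a description and no independent test.

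The setting without hBD-2 1 and hBD-2 3 was not planned and uses part of the same arrays, so it is no independent support. Of the 5 that were higher, 3 reached an unadjusted p under 0.05 there in limma, namely Nxpe5, St6galnac1 and Galnt14. B3gnt7 and Fut4 did not, whereas Galnt6 and Gcnt3 then did, so that the count was again 5 (7.35% of all genes were higher in that setting, and 0.00% passed the adjusted threshold). St6gal1 was lower there and St3gal4 was not (5.48% of all genes were lower). The 5 became 2 when PBS 1, PBS 2, PBS 3 or hBD-2 3 was left out, 3 without PBS 4 or hBD-2 1, and 9 without hBD-2 4, in limma. Of all genes, 4.38%, 3.93%, 4.87% and 6.44% were higher in the first 4 of these settings, 7.43% and 4.93% in the next 2, and 6.21% in the last. Without hBD-2 2 the lower genes were 4 (6.95% of all genes), and they were 2 without PBS 2 or hBD-2 4 (4.67% and 6.22% of all genes).

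**Figure D1:**
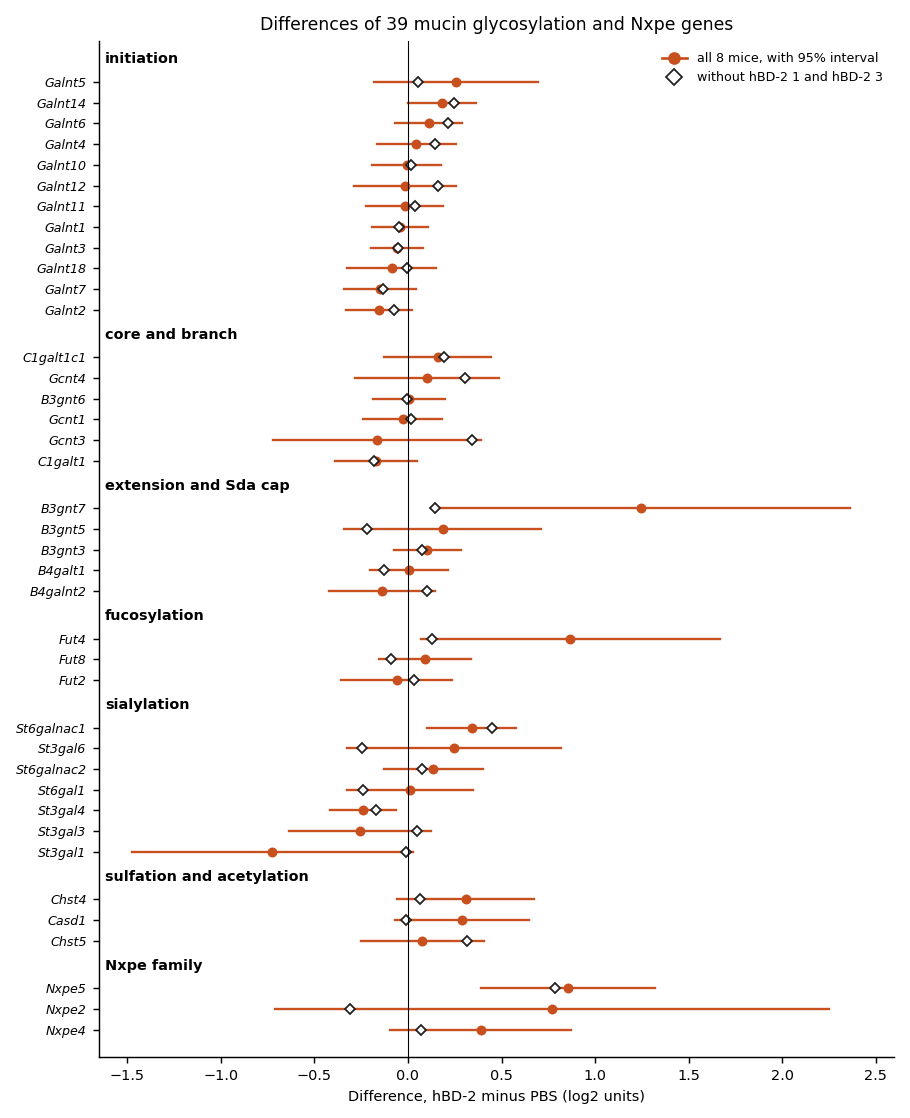
Difference between hBD-2 and PBS mice for each of the 39 genes (horizontal axis, log2 units), in blocks by role. Filled circles and lines give the limma estimate and its 95% interval over all 8 mice, and open diamonds the estimate without hBD-2 1 and hBD-2 3. Nxpe5 stays near the same place (0.85 and 0.79), whereas B3gnt7, Fut4, Nxpe2 and St3gal1 move far toward or across 0.

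Groups did not overlap in 1 gene that was higher, Nxpe5 (2.56% of the 39, against 2.80% of all genes), and in 2 that were lower, Galnt3 and St3gal4 (5.13%, against 3.60% of all genes). With each array centred on its median, the genes apart were Nxpe5 and St6galnac1 higher and St3gal4 lower, and over all genes the split of 547 higher and 703 lower became 727 and 581. With quantile normalization repeated, Nxpe5, St6galnac1 and Galnt14 were apart as higher and St3gal4 as lower. Nxpe5 and St3gal4 were thus apart under every scaling tried, and Galnt3 only in the values as deposited. The counts of higher genes apart with 1 mouse left out ran from 1 to 6, the 6 being without hBD-2 4 (5.68% of all genes were apart as higher there), when B3gnt7, Chst4, Fut4, Galnt5 and Nxpe4 joined Nxpe5.

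Nxpe5 had the lowest p of the set. It stood at 6.00, 6.35, 6.93 and 6.87 log2 units in PBS mice 1 to 4 and at 7.45, 7.64, 7.47 and 7.00 in hBD-2 mice 1 to 4. All 4 treated mice lay above all 4 controls, with hBD-2 4 only a little above PBS 3. The group means were 6.54 ± 0.44 and 7.39 ± 0.27 (SD, n = 4 each), a 1.81-fold difference of 0.85 (SE 0.21, 95% interval 0.39 to 1.32) that did not pass over all genes (adjusted p = 0.171, limma). With single mice left out it lay between 0.67 and 0.98, and leaving out both hBD-2 1 and hBD-2 3 gave 0.79. Low values in PBS 1 and PBS 2 widened the control group, and these are also the PBS mice with the lowest Hoxb13 (4.73 and 5.14, against 7.22 and 6.76 in PBS 3 and PBS 4). The highest Nxpe5 was in hBD-2 2, where Hoxb13 was 5.11, against 9.06, 9.32 and 5.22 in hBD-2 1, hBD-2 3 and hBD-2 4. Hoxd12, another posterior marker, was at 5.33, 5.48, 5.42 and 5.68 in PBS mice 1 to 4. In hBD-2 mice 1 to 4 it was at 5.87, 5.86, 5.75 and 5.89, so its groups were apart as higher too. The part of colon position in Nxpe5 was not tested.

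Nxpe2 and Nxpe4 were distributed in another way. Nxpe2 read 6.55, 6.15, 7.47 and 7.83 in PBS mice 1 to 4 and 8.87, 7.79, 8.82 and 5.59 in hBD-2 mice 1 to 4. It thus spread over 1.68 log2 units in PBS mice and 3.28 in hBD-2 mice, with hBD-2 4 the lowest of all 8 mice. The difference of 0.77 (SE 0.67, 95% interval -0.71 to 2.25, adjusted p = 0.674 in limma) became -0.31 without hBD-2 1 and hBD-2 3. For Nxpe4 the values were 4.00, 4.11, 4.54 and 4.60 in PBS mice and 5.18, 4.65, 4.85 and 4.11 in hBD-2 mice. Its difference was 0.39 (SE 0.22, adjusted p = 0.512 in limma) and 0.071 without the 2 mice. In both genes hBD-2 1 and hBD-2 3 were the highest arrays and PBS 3 and PBS 4 lay above PBS 1 and PBS 2, the order also seen in Hoxb13 among the PBS mice. Nxpe4 belonged to the lowest 25% of genes by mean value, where signal over background cannot be read. The RefSeq gene table (GRCm38.p6) places Nxpe2 and Nxpe4 on chromosome 9 with overlapping spans, and Nxpe5 apart from them on chromosome 5. Whether probes of these related genes share signal was not tested.

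Bases before the annotated start are shown for Nxpe5, the only gene of the set whose groups were apart as higher. They are also shown for Nxpe2, B3gnt7 and Fut4, which reached their highest values together in hBD-2 1 and hBD-2 3. They come from the RefSeq promoter table, build GRCm38.p6, which held 27 of the 39 genes, and each run is the 250 bases upstream of the start, 5′ to 3′ on the gene's strand. The windows are chr5:138225654-138225903 (plus strand) for Nxpe5, chr9:48340899-48341148 (minus strand) for Nxpe2, chr1:86302971-86303220 (plus strand) for B3gnt7 and chr9:14752123-14752372 (minus strand) for Fut4. Capitals mark matches on either strand to TATAAA (the TATA box), GGGCGG (the GC box bound by Sp1), CATAAA (a form bound by caudal factors such as Cdx2), CAATAAA (a form bound by posterior Hox proteins) or CAAAGTCCA (a form bound by Hnf4a).
Nxpe5: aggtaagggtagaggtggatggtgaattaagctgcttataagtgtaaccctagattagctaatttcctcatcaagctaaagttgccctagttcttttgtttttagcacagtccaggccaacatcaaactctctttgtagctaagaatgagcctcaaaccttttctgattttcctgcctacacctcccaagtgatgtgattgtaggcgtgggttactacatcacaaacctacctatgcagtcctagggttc
Nxpe2: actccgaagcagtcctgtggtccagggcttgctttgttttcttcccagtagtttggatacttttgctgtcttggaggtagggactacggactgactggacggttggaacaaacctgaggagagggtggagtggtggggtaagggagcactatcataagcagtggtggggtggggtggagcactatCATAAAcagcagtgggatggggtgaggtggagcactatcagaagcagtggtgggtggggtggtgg
B3gnt7: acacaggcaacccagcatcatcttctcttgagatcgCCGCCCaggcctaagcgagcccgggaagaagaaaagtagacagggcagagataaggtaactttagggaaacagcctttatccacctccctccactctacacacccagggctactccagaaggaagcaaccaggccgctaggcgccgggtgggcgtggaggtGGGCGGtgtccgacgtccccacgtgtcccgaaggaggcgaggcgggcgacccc
Fut4: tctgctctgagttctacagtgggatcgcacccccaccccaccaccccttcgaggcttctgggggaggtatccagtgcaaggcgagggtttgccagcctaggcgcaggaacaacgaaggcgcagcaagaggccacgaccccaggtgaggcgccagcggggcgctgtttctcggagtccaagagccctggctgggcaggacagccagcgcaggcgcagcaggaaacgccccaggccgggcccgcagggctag

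These windows differed in composition and shared none of the letters searched. The Nxpe5 window, at 42.8% G or C, held no match to any of the 5 motifs, and the Fut4 window, at 67.6%, held none either. In the B3gnt7 window (61.6% G or C) the GC box matched at 214 and 53 bases before the start, and the Nxpe2 window (54.8%) held 1 CATAAA, 65 bases before it. The median over all 32851 windows of the table was 52.4%. Of those windows 12.4% held TATAAA, 32.7% GGGCGG, 10.8% CATAAA, 4.2% CAATAAA and 0.384% CAAAGTCCA. A match is only a run of letters in these windows.

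**Figure D2:**
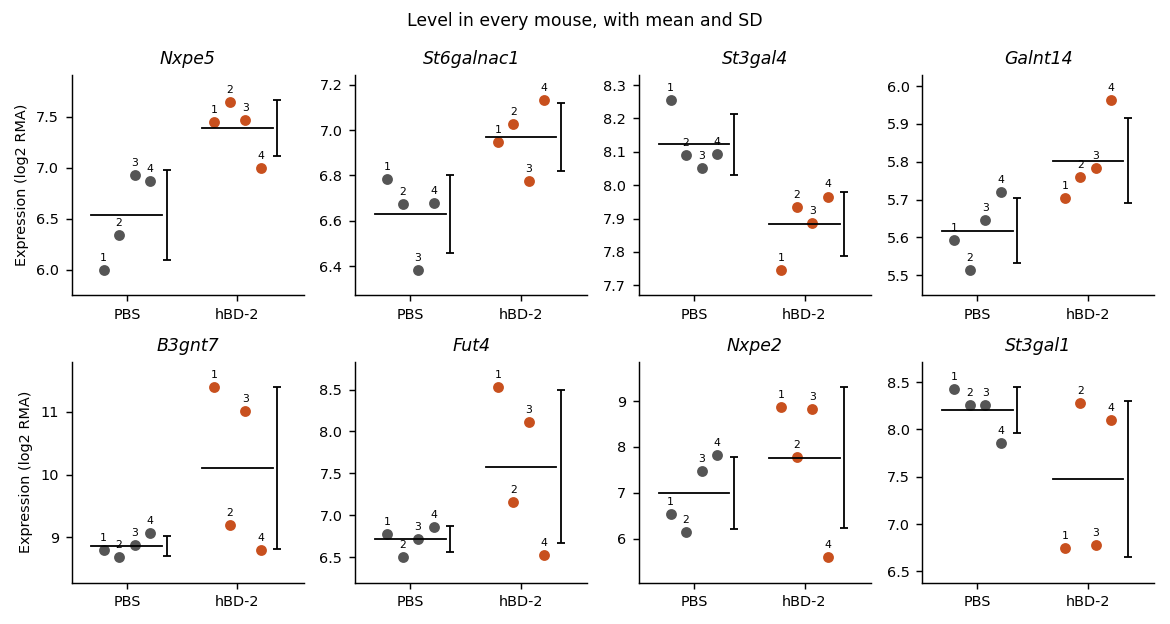
Level of 8 genes in every mouse (vertical axis, log2 RMA units, a separate scale for each gene), with the mouse number beside each point, the group mean as a line and the SD as a bar. In Nxpe5 and St3gal4 the groups do not overlap, in St6galnac1 and Galnt14 they overlap by a little, and in B3gnt7, Fut4, Nxpe2 and St3gal1 hBD-2 1 and hBD-2 3 are the highest of the 8 mice or, in St3gal1, the lowest.

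Of the 12 Galnt genes of chain initiation, 1 was higher at an unadjusted p under 0.05 in limma (8.33%, against 5.85% of all genes) and none was lower. None of the 12 passed the adjusted threshold, and their differences ran from -0.16 to 0.26 with a median of -0.017. Galnt14 was at 5.59, 5.51, 5.64 and 5.72 in PBS mice and at 5.70, 5.76, 5.78 and 5.96 in hBD-2 mice. Only PBS 4 and hBD-2 1 overlapped, by a hair, and the difference was 0.18 (SE 0.081, adjusted p = 0.416 in limma), or 0.24 without hBD-2 1 and hBD-2 3. Galnt2, a broadly expressed member, was at 8.80, 8.78, 8.69 and 8.73 in PBS mice and 8.49, 8.78, 8.54 and 8.58 in hBD-2 mice. hBD-2 1, hBD-2 3 and hBD-2 4 were below every control and hBD-2 2 was not, for a difference of -0.16 (SE 0.080, adjusted p = 0.477 in limma), which was -0.075 without the 2 mice.

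Galnt10, which prefers peptides that already carry a sugar, was the least different initiation enzyme. Its values were 9.79, 9.64, 9.93 and 9.87 in PBS mice and 9.85, 9.88, 9.70 and 9.76 in hBD-2 mice, within the same range, and the difference of -0.0074 had a 95% interval of -0.19 to 0.18 (0.014 without hBD-2 1 and hBD-2 3). Galnt3, singled out after its values were seen, had groups that were apart by a small step. PBS mice lay at 10.46, 10.41, 10.37 and 10.40 and hBD-2 mice at 10.35, 10.37, 10.35 and 10.35, a difference of -0.058 (95% interval -0.20 to 0.081, adjusted p = 0.750 in limma). The other 8 initiation genes ranged from -0.15 for Galnt7, which also prefers glycosylated peptides, to 0.26 for Galnt5. Galnt12, a gene linked to human colorectal cancer, was at -0.017, and Galnt1, Galnt4, Galnt6, Galnt11 and Galnt18 at -0.044, 0.046, 0.11, -0.018 and -0.086. Leaving out hBD-2 1 and hBD-2 3 put Galnt6 at 0.21, Galnt12 at 0.16, Galnt4 at 0.15, Galnt5 at 0.052, Galnt11 at 0.036 and Galnt18 at -0.0060.

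Core and branching enzymes showed no gene at an unadjusted p under 0.05 among 6. C1galt1, which makes the core 1 structure, was at 10.55, 10.32, 10.65 and 10.76 in PBS mice and 10.48, 10.44, 10.34 and 10.33 in hBD-2 mice. Apart from PBS 2 every control exceeded every treated mouse, and the difference was -0.17 (SE 0.098, adjusted p = 0.523 in limma). C1galt1c1, the chaperone Cosmc that C1galt1 needs to fold, was at 0.16 (95% interval -0.13 to 0.45), so that enzyme and chaperone lay on opposite sides of 0 without either passing. B3gnt6, the core 3 synthase of the gut, read 4.11, 4.15, 4.07 and 3.87 in PBS mice and 4.04, 3.92, 4.09 and 4.17 in hBD-2 mice. It did not differ beyond its spread (0.0049, 95% interval -0.19 to 0.20, and -0.0044 without the 2 mice), but it too lay in the lowest 25% of genes.

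Gcnt3, which makes core 2 and core 4 branches, was the branching gene that spread most among treated mice, and it is singled out after its values were seen. PBS mice were at 10.24, 10.29, 10.03 and 9.96, and hBD-2 mice at 9.57, 10.63, 9.35 and 10.32. hBD-2 1 and hBD-2 3 lay below all controls, and hBD-2 2 and hBD-2 4 above all of them. The difference of -0.16 (95% interval -0.72 to 0.39) turned to 0.34 without those 2 mice. Gcnt1 and Gcnt4, which also make core 2 branches, were at -0.027 and 0.10, and at 0.015 and 0.31 without them.

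Among the 5 chain extension genes, B3gnt7 had the largest difference of the whole set. This N-acetylglucosaminyltransferase extends sulfated N-acetyllactosamine chains. PBS mice stood at 8.80, 8.68, 8.87 and 9.07, and hBD-2 mice at 11.39, 9.20, 11.01 and 8.81. hBD-2 1 and hBD-2 3 were far above everything else, hBD-2 2 slightly above the controls and hBD-2 4 within them. The means of 8.86 ± 0.16 and 10.10 ± 1.3 (SD, n = 4 each) gave a 2.37-fold difference of 1.24 (SE 0.50, 95% interval 0.12 to 2.36, adjusted p = 0.371 in limma). Without those 2 mice it was 0.14.

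B4galt1, which adds galactose to the growing chain, had the smallest difference of these 5 genes. It read 10.98, 10.87, 10.81 and 11.01 in PBS mice and 11.03, 10.85, 11.08 and 10.73 in hBD-2 mice, a difference of 0.0067 (95% interval -0.20 to 0.22), and of -0.13 without the 2 mice. B3gnt3, which extends core 1, was at 0.10 and B3gnt5, mainly an enzyme of glycolipid chains, at 0.19, or -0.22 without the 2 mice. B4galnt2, which makes the Sda antigen by adding N-acetylgalactosamine to sialylated chains, was lowest in hBD-2 1 and hBD-2 3 (11.05 and 11.12, against 11.42 to 11.64 in the other 6) and is named after its values were seen. Its difference was -0.14 over all mice and 0.10 without them.

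In the fucosylation group Fut4 resembled B3gnt7. Fut4 attaches the fucose of Lewis x structures. The values were 6.78, 6.50, 6.72 and 6.86 in PBS mice and 8.53, 7.15, 8.12 and 6.53 in hBD-2 mice, with hBD-2 1 and hBD-2 3 on top again, hBD-2 2 above the controls and hBD-2 4 among them. Means of 6.71 ± 0.16 and 7.58 ± 0.91 (SD, n = 4 each) gave a 1.82-fold difference of 0.87 (SE 0.36, adjusted p = 0.384 in limma), and 0.13 remained without the 2 mice. Fut2, which makes the H antigen on intestinal mucin, was at 11.25, 11.03, 11.04 and 11.59 in PBS mice and 11.16, 11.38, 11.00 and 11.14 in hBD-2 mice. These ranges overlapped and the difference was -0.060 (95% interval -0.36 to 0.24), or 0.030 without the 2 mice. Fut8, which places the core fucose of N-glycans and is no mucin enzyme in the strict sense, was at 0.091, and at -0.090 without them.

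Sialylation genes lay on both sides of 0. St6galnac1, the sialyltransferase that acts on the first sugar of the chain and makes sialyl-Tn in goblet cells, was at 6.78, 6.67, 6.38 and 6.68 in PBS mice and 6.95, 7.03, 6.78 and 7.13 in hBD-2 mice. PBS 1 lay just above hBD-2 3 (6.784 and 6.775), so the groups overlapped slightly. Apart from that pair the treated mice were above the controls. The means of 6.63 ± 0.17 and 6.97 ± 0.15 (SD, n = 4 each) differed by 0.34 (SE 0.11, 95% interval 0.10 to 0.58, adjusted p = 0.260 in limma), and the difference was 0.45 once hBD-2 1 and hBD-2 3 were left out. St6galnac2, a relative with a preference for core 1, was at 0.14, or 0.077 without them.

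St3gal4, which caps terminal galactose with sialic acid, was lower in every treated mouse. PBS mice were at 8.26, 8.09, 8.05 and 8.09, and hBD-2 mice at 7.75, 7.93, 7.89 and 7.97. The groups were narrowly apart, and the means of 8.12 ± 0.091 and 7.88 ± 0.097 (SD, n = 4 each) differed by -0.24 (SE 0.079, 95% interval -0.41 to -0.063, adjusted p = 0.280 in limma). With single mice left out the difference lay between -0.27 and -0.19, and it was -0.17 without the 2 mice.

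St3gal1, which caps core 1 with sialic acid, had the largest difference in the other direction. Its values were 8.43, 8.26, 8.26 and 7.86 in PBS mice and 6.75, 8.28, 6.78 and 8.11 in hBD-2 mice. Only hBD-2 1 and hBD-2 3 were below the controls. The difference of -0.73 (SE 0.34, 95% interval -1.48 to 0.025, adjusted p = 0.436 in limma) shrank to -0.011 without them. St3gal3 and St3gal6, both sialyltransferases of N-acetyllactosamine chains, are named after their values were seen. St3gal3 was lowest in the same 2 mice (9.75 and 10.08, against 10.34 to 10.69) and St3gal6 highest in them (11.20 and 11.04, against 10.02 to 10.68), with differences of -0.26 and 0.24 that became 0.047 and -0.25 without them. St6gal1, which acts mostly on N-glycans and is also abundant in B cells, was at 7.04, 7.17, 7.01 and 7.29 in PBS mice and 7.60, 6.89, 7.19 and 6.88 in hBD-2 mice. Its difference was 0.012 over all mice, with hBD-2 1 highest, and -0.24 without the 2 mice.

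Sulfation and acetylation genes all lay above 0 without reaching an unadjusted p under 0.05. Chst4, a sulfotransferase acting on N-acetylglucosamine, was at 8.27, 8.00, 8.09 and 8.29 in PBS mice and 8.89, 8.47, 8.55 and 7.98 in hBD-2 mice. All treated mice but hBD-2 4 exceeded the controls, and hBD-2 4 was below them, for a difference of 0.31 (SE 0.16, adjusted p = 0.494 in limma), or 0.062 without hBD-2 1 and hBD-2 3. Casd1, the acetyltransferase that modifies sialic acid before it is attached, was at 9.18, 8.94, 9.29 and 9.28 in PBS mice and 9.80, 9.19, 9.73 and 9.13 in hBD-2 mice. Here the same 2 mice were high and the other 2 fell within the controls, and the difference of 0.29 (SE 0.16, adjusted p = 0.511 in limma) became -0.012 without them. Chst5, a related sulfotransferase of the gut, was at 3.74, 3.45, 3.57 and 3.93 in PBS mice and 3.54, 4.08, 3.49 and 3.90 in hBD-2 mice, in the lowest 25% of genes, with a difference of 0.078 (95% interval -0.25 to 0.41), or 0.31 without the 2 mice.

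**Figure D3:**
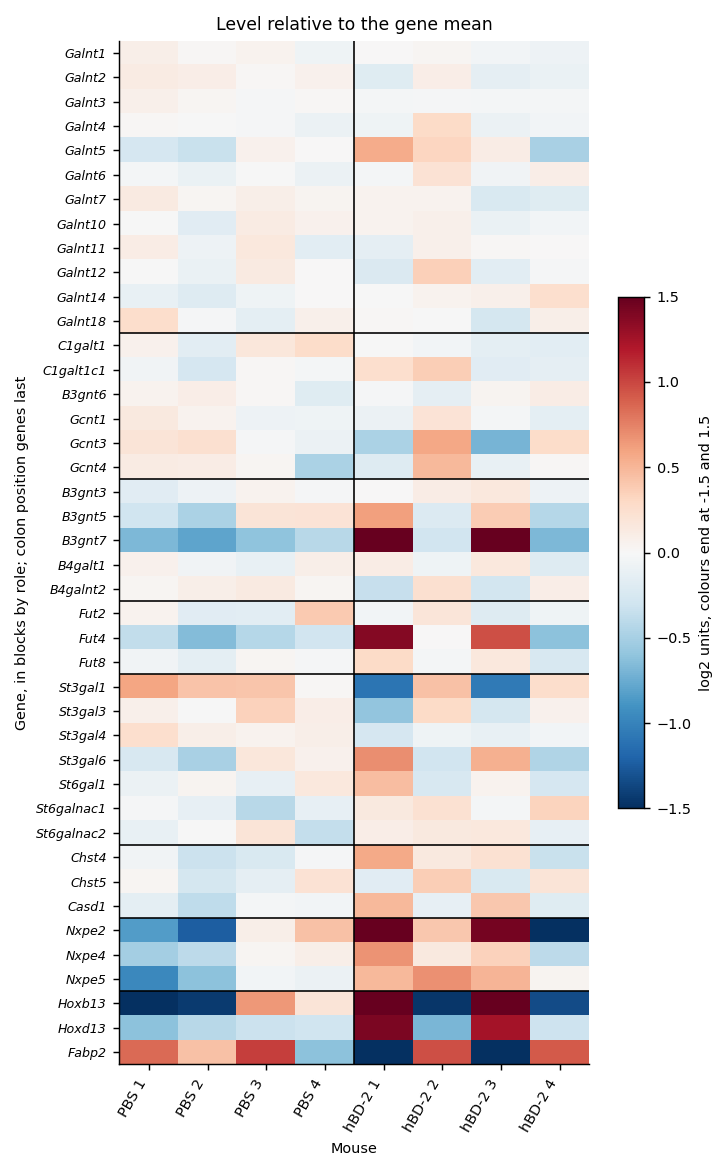
Level of the 39 genes in each mouse relative to the gene's mean over the 8 mice (colour, log2 units, ending at -1.5 and 1.5), in blocks by role, with Hoxb13, Hoxd13 and Fabp2 in the last rows. Columns hBD-2 1 and hBD-2 3 are deep red in B3gnt7, Fut4 and Nxpe2 and deep blue in St3gal1, hBD-2 4 is deep blue in Nxpe2, and Nxpe5 is light red in hBD-2 1, hBD-2 2 and hBD-2 3 and close to its mean in hBD-2 4.

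The hold of hBD-2 1 and hBD-2 3 on this set was counted as a description, with no test. Both were the highest arrays in 10 of the 39 genes (25.6%, against 6.41% of all genes) and the lowest in 7 (17.9%, against 8.06%). The 10 were B3gnt5, B3gnt7, B4galt1, Fut4, Fut8, St3gal6, Chst4, Casd1, Nxpe2 and Nxpe4, and the 7 were Galnt2, Galnt12, Gcnt3, B4galnt2, St3gal1, St3gal3 and St3gal4. Leaving these mice out turned the direction of 16 of the 39 differences, and 29 turned or moved by over 1.5 times. The 39 genes ranged over 0.092 to 1.68 log2 units among PBS mice and over 0.021 to 3.28 among hBD-2 mice, with Nxpe2 the widest and Galnt3 the narrowest in both groups.

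Other genes of the pathway were counted in the same way, in lists also chosen with earlier results of these data known. Of 40 further O-glycan transferases measured, 5 were higher (12.5%, against 5.85% of all genes) and 1 lower (2.5%, against 5.98%) at an unadjusted p under 0.05 in limma, with a median of 0.031 and none past the adjusted threshold. Gal3st1, a galactose sulfotransferase best known for sulfatide, was higher in all 4 treated mice (7.45, 7.66, 7.68 and 7.41, against 7.22, 7.22, 7.15 and 6.81), at 0.45 (SE 0.11, adjusted p = 0.169) and 0.44 without hBD-2 1 and hBD-2 3. Gal3st2, which sulfates galactose of mucin chains, and B4galnt3 were at 0.71 and 0.57, and at 0.19 and 0.097 without them. In both of these, as in B3gnt7, hBD-2 1 and hBD-2 3 were the highest arrays.

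Of 25 genes for sugar donors and their Golgi transporters, 2 were higher (8.0%, against 5.85% of all genes) and none lower at an unadjusted p under 0.05, with a median of 0.076. They were the sulfate transporter Slc26a2 at 0.33 (SE 0.12) and the GDP-fucose transporter Slc35c1 at 0.20 (SE 0.076), while Nans, an enzyme of sialic acid synthesis, was at 0.20 (SE 0.10). Their values without the 2 mice were 0.15, 0.13 and 0.033. Among 5 genes that act on sialic acid in removal, the acetylesterase Siae was at 0.19, the lyase Npl at -0.29 and the sialidase Neu2 at 0.26. Siae and Npl had an unadjusted p under 0.05, and neither did without the 2 mice (0.11 and -0.18). No adjusted p in these lists was under 0.05.

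Of 8 genes for the mucins that carry the chains, none had an unadjusted p under 0.05 in limma. With so few mice this does not show equal levels. Their differences ran from -0.083 to 0.41, and 7 of the 8 lay above 0 (87.5%, against 53.5% of all genes). Without hBD-2 1 and hBD-2 3, 1 of the 8 lay beyond 0.5 log2 units in either direction (2.06% of all genes). Muc2 lay at 12.77 to 12.94 in PBS mice and 12.82 to 13.04 in hBD-2 mice, a difference of 0.077 (95% interval -0.10 to 0.26), and Muc20 and Muc4 were at 0.33 and 0.11, or 0.053 and 0.25 without hBD-2 1 and hBD-2 3. Goblet cell markers, 17 in all, had a list mean of 9.55 to 9.88 in PBS mice and 9.60 to 10.00 in hBD-2 mice, with 3 genes higher (17.6%, against 5.85% of all genes) and none lower at an unadjusted p under 0.05, and none either way without hBD-2 1 and hBD-2 3. Bcas1 and Creb3l1 were at 0.36 and 0.35, Tff3, the goblet cell trefoil peptide, at 0.26, Fcgbp at 0.25, and the goblet lineage factors Atoh1 and Spdef at 0.12 and -0.12. Without the 2 mice Bcas1 was at 0.28, Creb3l1 at 0.22, Tff3 at 0.087, Fcgbp at -0.17, Atoh1 at 0.23 and Spdef at 0.14.

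Marker lists of other cell types differed beside these values, on a scale with no true 0. In whole tissue fewer cells of a type and less RNA per cell cannot be told apart. Of 15 leukocyte markers 8 were lower and none higher at an unadjusted p under 0.05 (6 lower and 1 higher without hBD-2 1 and hBD-2 3), with a list mean of 7.75 to 7.94 in PBS mice and 7.45 to 7.59 in hBD-2 mice. Fcer1g, the Fc receptor signalling chain, fell by 0.81 (adjusted p = 0.0467 in limma, the only marker past the threshold). With repeated quantile normalization, the replicate block, the log2 minimum, or any mouse but hBD-2 4 left out, its adjusted p was 0.0527 to 0.176. Laptm5 was at -0.55 and Ptprc, the pan-leukocyte phosphatase, at -0.27 (-0.49 without the 2 mice). Of 15 stromal and muscle markers 8 were lower and none higher, in both settings (53.3%, against 5.98% and 5.48% of all genes lower). Their list means were 10.02 to 10.21 in PBS mice and 9.50 to 10.01 in hBD-2 mice. Vim and Col3a1 were at -0.54 and -0.52. Colonocyte markers had means of 10.20 to 10.50 and 10.42 to 10.61, with 2 of 16 higher (12.5%, against 5.85% of all genes). These were Car4 at 0.39 and Slc26a3 at 0.33 (0.24 and 0.18 without the 2 mice). Cdx1 at 0.21 was the 1 of 16 pan-epithelial markers that was higher (6.25%, near the 5.85% of all genes), beside Krt18 at -0.16 (-0.034 without them).

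Markers of colon position differed between mice and, in part, between the groups. The mean over 9 posterior markers was 7.68 in hBD-2 1, 7.44 in hBD-2 3 and 5.91 to 6.49 elsewhere. Of the 9, 1 was higher and none lower at an unadjusted p under 0.05 in limma (11.1%, against 5.85% of all genes). Without hBD-2 1 and hBD-2 3, 2 were higher and none lower (22.2%, against 7.35%). Hoxd12 was higher in all 4 treated mice (0.36, SE 0.086, adjusted p = 0.158 in limma). Small intestine and proximal markers had means of 6.01 to 6.21 and 5.97 to 6.51, with Fabp6 at 0.25 and Slc5a1 at 0.30 (0.099 without the 2 mice). Of 11 such markers 2 were higher and none lower, in both settings (18.2%, against 5.85% and 7.35% of all genes higher). The part of these cell types and positions in the differences of Nxpe5, St6galnac1 and St3gal4 was not tested.

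**Figure D4:**
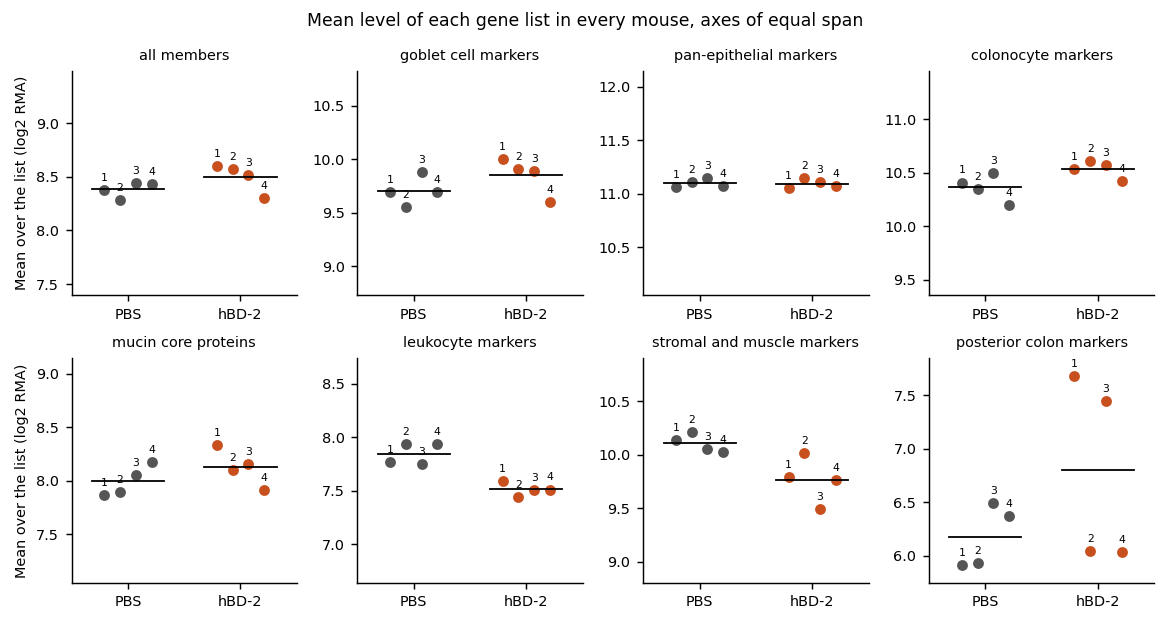
Mean level of 8 gene lists in every mouse (vertical axis, log2 RMA units, each panel spanning the same number of units), with the mouse number beside each point and the group mean as a line. Leukocyte marker means are 7.45 to 7.59 in hBD-2 mice and 7.75 to 7.94 in PBS mice, pan-epithelial means lie on one level, and posterior colon means are highest in hBD-2 1 and hBD-2 3.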

How the data were processed

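RNA of whole colon from 8 mice was measured on Affymetrix arrays, 1 per mouse. The deposited table holds log2 values that the authors made with the R package oligo and RMA, per the submitters' processing notes, with no version given. RMA makes array distributions alike, so an overall shift of expression would not be seen. The sources used here name no genome build for the arrays. Of 22203 probe sets 19572 had 1 gene in the platform annotation, none several and 2631 none. The probe set with the highest mean was kept for the 55 genes with more than 1, leaving 19505.

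Groups and mouse numbers were taken from titles. Differences, hBD-2 minus PBS, were tested two-sided in limma 3.58.1 (lmFit, eBayes; R version 4.3.3), with Benjamini-Hochberg adjustment over all genes. A gene's level is not compared with another gene's. The genes and lists were chosen with earlier results of these data known. Named with every value are the 12 genes with the lowest p and, within each role, those with the lowest and highest p. Those named after their values were seen are marked so. Further genes are the 3 or 2 with the lowest p of each pathway or marker list and a few fixed markers. The fit was tested on simulated data. Alternatives are given in the closing section. Promoter windows were searched by exact letters, and figures drawn with matplotlib 3.10.9.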

Additional observations from a re-analysis of the deposited data

Results flagged for a closer look

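In 146 groups of 4 mice, 2 for each gene named, 6 held a mouse whose gap to the nearest other exceeded the share of the group's range that Dixon's 95% critical value sets for 4 samples. Chance flags about 1 in 20 groups, so 6 of 146 is no more than chance gives. Among the mucin glycosylation genes Galnt4 was at 9.95 in hBD-2 2, against 9.57 to 9.61 in the other treated mice, and Gcnt4 at 5.96 in PBS 4, against 6.47 to 6.56 in the other controls. Gal3st1 was at 6.81 in PBS 4, against 7.15 to 7.22. Bcas1 was at 9.28 in hBD-2 1 (others 8.94 to 8.97), Creb3l1 at 9.99 in hBD-2 4 (others 10.44 to 10.47) and Cdx1 at 9.96 in hBD-2 3 (others 9.73 to 9.75).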

How the results depend on the processing

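Of the 39 genes none passed the adjusted threshold under any setting, with 2 to 9 higher and 1 to 4 lower at an unadjusted p under 0.05. All genes passing numbered 91 with an intensity trend and robust prior, 16 and 47 with the lowest 25% or 50% of genes left out, 4 with quantile normalization repeated, 68 with array weights, 0 with the replicate number as a block, 0 with a log2 minimum of 5, 0 without hBD-2 1 and hBD-2 3, and 0 to 11 with 1 mouse left out. The block left 5 genes of the set higher and 1 lower. Deviations of same-numbered mice from their group means correlated at -0.15, 0.14, 0.24 and 0.045. With so few mice these values cannot settle whether the numbers pair the mice.

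Genes of the set that were higher numbered 2 with the trend (5.30% of all genes), 3 without the lowest 50% (4.66%), 8 with array weights (7.51%), 3 with the log2 minimum (4.11%) and 2 to 9 with 1 mouse left out (3.93% to 7.43%). Lower ones numbered 2 with the trend (6.44%), 3 with array weights (7.78%), 2 with the log2 minimum (5.67%) and 1 to 4 with 1 mouse left out (4.57% to 6.95%). Genes with groups apart as higher numbered 2 after median centring (3.73%), 3 after repeated quantile normalization (3.23%), 5 without hBD-2 1 and hBD-2 3 (11.8%) and 1 to 6 with 1 mouse left out (3.91% to 6.65%), and as lower 1 after either scaling (2.98% and 3.42%). The cause was not tested. Where the lowest 25% or 50% were left out, 36 and 32 of the 39 were tested.

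Counts for the other pathway lists, recomputed as a choice made after seeing the data, pool higher and lower genes at an unadjusted p under 0.05. In the order given here, the lists held 40, 25, 5 and 8 measured genes. Further transferases numbered 3 without the lowest 50%, 1 with the log2 minimum and 1 to 7 with 1 mouse left out, against 6. Donor and transporter genes numbered 4 with array weights, 1 without the 2 mice and 0 to 6 with 1 left out, against 2. Sialic acid removal numbered 1 with the log2 minimum, 0 without the 2 mice and 0 to 2 with 1 left out, against 2, and mucins 1 with array weights and 0 to 1 with 1 left out, against 0. Of all genes, 5.85% were higher and 5.98% lower in the main fit. These shares were 4.66% and 8.43% without the lowest 50%, and 4.11% and 5.67% with the log2 minimum. They were 7.51% and 7.78% with array weights, and 7.35% and 5.48% without the 2 mice. With 1 mouse left out they were 3.93% to 7.43% and 4.57% to 6.95%.

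Without hBD-2 1 and hBD-2 3 these differences turned: Galnt10 0.014, Galnt11 0.036, Galnt12 0.16, B3gnt6 -0.0044, Gcnt1 0.015, Gcnt3 0.34, B3gnt5 -0.22, B4galt1 -0.13, B4galnt2 0.10, Fut2 0.030, Fut8 -0.090, St3gal3 0.047, St3gal6 -0.25, St6gal1 -0.24, Casd1 -0.012, Nxpe2 -0.31, Fcgbp -0.17, Spdef 0.14, Hoxd13 -0.085, Hoxb13 -0.79 and Fabp2 0.52. Repeated quantile normalization turned Galnt11 to 0.018, Galnt12 to 0.0087, B3gnt6 to -0.050 and B4galt1 to -0.00028, median centring Galnt10 to 0.0091, and array weights Galnt10 to 0.0039, B3gnt6 to -0.022 and Gcnt4 to -0.0068. With 1 mouse left out B3gnt6 ran from -0.056 to 0.049, B4galt1 from -0.046 to 0.071, Chst5 from -0.031 to 0.17, Fut2 from -0.13 to 0.062, Galnt4 from -0.044 to 0.083, Galnt10 from -0.063 to 0.033, Galnt11 from -0.075 to 0.033, Galnt12 from -0.14 to 0.052, Gcnt1 from -0.10 to 0.018, Gcnt3 from -0.39 to 0.042, Gcnt4 from -0.045 to 0.18, St6gal1 from -0.14 to 0.10 and Spdef from -0.23 to 0.012. Signal over background cannot be read from RMA values, which limits low genes most.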
